A study of Mus musculus with 12 samples.

Results

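The subject here is the effect of the Gclc mutation that natural and induced regulatory T cells (Tregs) have in common. All 12 libraries of the series were used, and every one carries both a cell kind and a genotype in its title. For each gene an average mutant effect was taken over both cell kinds, and a gene was called as moving the same way in both kinds when it passed the test in nTregs and in iTregs with the same sign. Of 17977 genes tested, 1792 did so: 1043 were higher and 749 were lower in mutant cells of both kinds.

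Glutamate cysteine ligase takes the rate-limiting step of glutathione synthesis, and Gclc codes for its catalytic subunit. Glutathione is the main thiol antioxidant of the cytosol, and serine, through glycine and the transsulphuration route to cysteine, feeds its synthesis. Tregs are CD4+ T cells that restrain other immune cells and are defined by the transcription factor Foxp3.

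The libraries are poly(A) RNA of mouse cells of the C57BL/6 strain at 8 weeks of age, in 4 groups of 3. Gclc mutant nTregs (libraries 1, 2 and 4) and Gclc mutant iTregs (libraries 1, 2 and 4) were set against WT nTregs (libraries 1, 2 and 3) and WT iTregs (libraries 1, 2 and 3). nTregs were sequenced as isolated, and iTregs after differentiation in culture from naive CD4+ T cells. The labels call the mutant cells KO or Gclc mutant and give neither the allele, the deleted exons nor a Cre driver. Nothing in the labels says that libraries of a group came from separate mice or cultures, and the p-values then refer to library-to-library spread alone, which may be technical.

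Library depth was 28707579 to 39886130 assigned counts. nTreg mutant library 1 stands apart: its chi-square against libraries 2 and 4 of its group was 47.2 and 41.1 per degree of freedom, against 4.2 as the lowest within-group value. It also held most of the CD8 T and NK marker RNA. The summed level of 12 such markers was 154 to 1154 CPM (counts scaled to the library total) in nTreg mutant and 66.2 to 73.8 CPM in nTreg WT libraries, and 48.5 to 65.4 CPM in iTreg mutant and 36.9 to 50.9 CPM in iTreg WT libraries. B cell markers summed to 1575 to 2478 CPM in nTreg mutant and 2112 to 2493 CPM in nTreg WT libraries, so the freshly isolated cells carried B cell RNA in both genotypes. The same B cell markers summed to 89.3 to 134 CPM in iTreg mutant and 83.2 to 111 CPM in iTreg WT libraries, where Lyz2, Csf1r, Klrb1c and Hbb-bs were all at or below 0.0859 CPM and Ncr1 had no counts. Erythroid and platelet markers summed to 182 to 906 CPM in nTreg mutant and 113 to 390 CPM in nTreg WT libraries, and myeloid markers to 104 to 126 CPM in nTreg mutant and 71.5 to 74.9 CPM in nTreg WT libraries. The Treg markers Il2ra (685 to 715 CPM in nTreg mutant, 734 to 826 CPM in nTreg WT, 1550 to 1698 CPM in iTreg mutant and 1238 to 1384 CPM in iTreg WT) and Ctla4 (234 to 351, 292 to 352, 131 to 167 and 128 to 132 CPM in the same 4 groups) were present throughout. Ikzf2, the Helios gene of thymus-derived Tregs, was at 563 to 807 CPM in nTreg mutant and 840 to 922 CPM in nTreg WT libraries, and at 22.0 to 64.4 CPM in iTreg mutant and 22.4 to 31.3 CPM in iTreg WT libraries. The average mutant effect on Il2ra, Ctla4 and Ikzf2 was 0.07, 0.02 and 0.01 on the log2 scale, with edgeR adjusted p of 0.565, 0.896 and 0.975. For Il2ra the library ranges lay opposite ways: mutant libraries lay below all WT libraries in nTregs and above all WT libraries in iTregs. That describes the ranges only, and no test per kind is given here.

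The mutated gene was lower in both kinds. In all that follows, values per library are in the order 1, 2, 4 for mutant and 1, 2, 3 for WT cells. Gclc (ENSMUSG00000032350, GRCm38 chromosome 9, 77754535 to 77794485, plus strand) had 45.8, 41.7 and 43.2 CPM in nTreg mutant, against 78.7, 79.0 and 70.8 CPM in nTreg WT libraries. It had 18.8, 21.0 and 19.0 CPM in iTreg mutant, against 56.5, 53.2 and 51.9 CPM in iTreg WT libraries. Every mutant library lay below every WT library of its kind, and a transcript level above 0 remained in all of them. The log2 fold change was -0.81 ± 0.07 (SE) in nTregs and -1.46 ± 0.08 in iTregs, an average of -1.13 ± 0.11 (edgeR adjusted p = 7.39e-05). The fold changes differed by -0.65 on the log2 scale, iTregs minus nTregs (95% interval -0.88 to -0.43, edgeR adjusted p = 0.00381). Reads over the deleted part cannot be separated from the rest in counts per gene.

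Foxp3 (ENSMUSG00000039521, chromosome X, 7579676 to 7595243, plus strand) fell in both kinds. It had 135, 181 and 217 CPM in nTreg mutant, against 610, 564 and 559 CPM in nTreg WT libraries. It had 107, 96.4 and 75.5 CPM in iTreg mutant, against 300, 287 and 291 CPM in iTreg WT libraries. The groups lay far apart in each kind. The average log2 fold change was -1.68 ± 0.11 (edgeR adjusted p = 4.54e-06), with -1.70 ± 0.15 in nTregs and -1.66 ± 0.15 in iTregs, and the interval of the difference was -0.41 to 0.50. Without nTreg mutant library 1 the average was -1.62. In bulk RNA, fewer cells that express a gene and less RNA of it per cell cannot be told apart. The 12 CD4 T cell markers other than Foxp3 summed to 4686 to 5023 CPM in nTreg mutant and 5272 to 5674 CPM in nTreg WT libraries, and to 4162 to 4445 CPM in iTreg mutant and 4058 to 4315 CPM in iTreg WT libraries, and their part in the Foxp3 result was not tested.

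**Figure D1:**
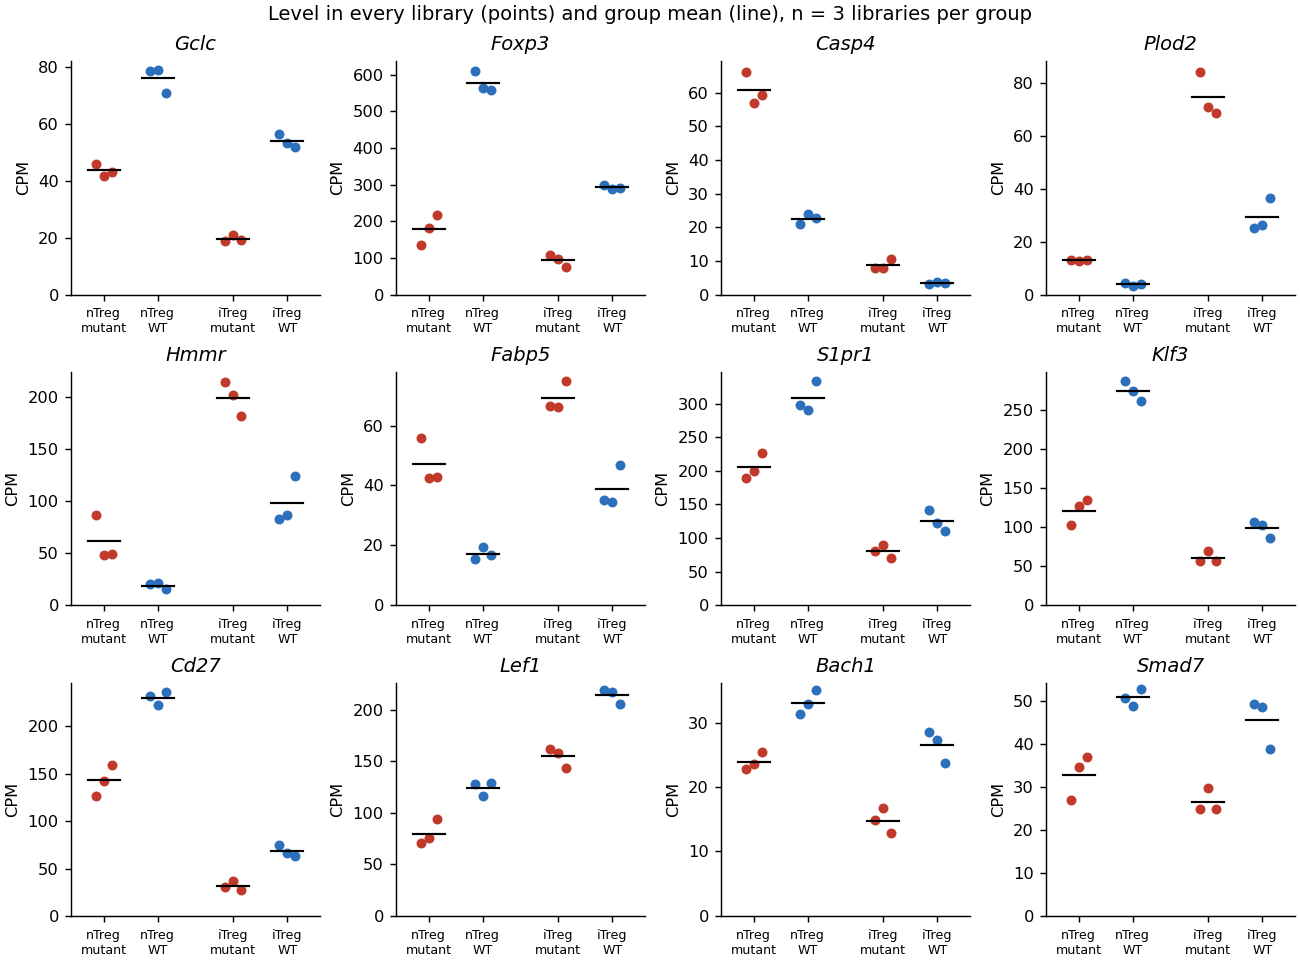
Level in CPM (vertical axis, linear from 0) of 12 genes in each library, with mutant left of WT within nTregs and within iTregs; points are libraries and lines are group means. Within each kind, Gclc and Foxp3 are lower in every mutant library, as are S1pr1, Klf3, Cd27, Lef1, Bach1 and Smad7, while Casp4, Plod2, Hmmr and Fabp5 are higher.

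Averaged over both kinds, 6156 genes passed at an edgeR adjusted p below 0.05, which is 34.2% of those tested. Of these, 3602 were higher (20.0%) and 2554 lower (14.2%) in mutant cells, and 699 were at least 2-fold higher and 195 at least 2-fold lower. Taken alone, nTregs gave 6269 calls (34.9%; 19.3% higher and 15.6% lower) and iTregs 4561 calls (25.4%; 14.0% higher and 11.4% lower). The 1792 genes that passed in both kinds the same way are 9.97% of those tested, 28.6% of the nTreg calls and 39.3% of the iTreg calls. Those higher in both are 5.80% and those lower in both 4.17% of tested genes. Another 251 genes (1.40%) passed in both kinds with opposite signs, so that 87.7% of the 2043 genes that passed in both moved the same way.

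Of the 6156 average calls, 1792 (29.1%) passed in both kinds the same way, 2455 passed in nTregs alone, 1261 in iTregs alone and 647 in neither kind by itself. The effect differed between the kinds for 2392 genes (13.3%), among them 634 (10.3%) of the average calls and 71 (3.96%) of the genes called in both. That total was 1104 without nTreg WT 2, 1209 without nTreg WT 1, 1247 without iTreg WT 2, 1287 without iTreg mutant 1, 1298 without iTreg mutant 2 and 1376 without iTreg WT 1. For 1394 of the 1792 genes (77.8%, against 62.0% of all tested genes) the 95% interval of the difference lay within 2-fold, and for 995 (55.5%, against 36.4%) within 1.5-fold. The 1792 genes were chosen by tests in the same fit that gave these differences and intervals. Their shares depend on that choice and do not measure agreement between the kinds. Over all tested genes the log2 fold changes in nTregs and in iTregs had the same sign for 62.9%, with a Pearson r of 0.34 and a Spearman rho of 0.38 across genes, which are not independent replicates.

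**Figure D2:**
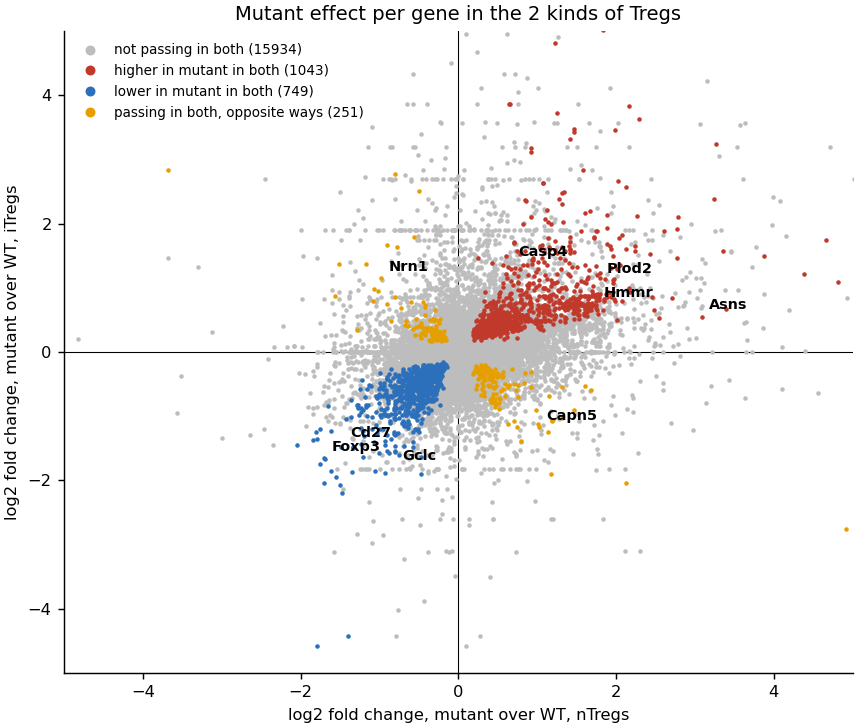
Log2 fold change (mutant over WT) in iTregs against that in nTregs for each tested gene, coloured by whether it passed in both kinds; 17 genes lie beyond the axes. The genes called as higher or lower in both occupy the upper right and lower left, and the 251 with opposite signs the other corners.

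Most of these shared changes were under 2-fold. The 1043 genes higher in both had median log2 fold changes of 0.60 in nTregs and 0.52 in iTregs, and the 749 lower in both had medians of -0.50 and -0.51, against 0.04 and 0.04 over all tested genes. In 158 genes (0.879%) the change was at least 2-fold in each kind, 124 of them higher and 34 lower. Mutant and WT libraries did not overlap in either kind for 1009 of the 1043 higher and 734 of the 749 lower genes, and for 3569 (19.9%) of all tested genes, 11.7% as higher and 8.10% as lower. The median level of the higher genes was 27.6 CPM in nTreg mutant, 17.0 CPM in nTreg WT, 44.5 CPM in iTreg mutant and 30.3 CPM in iTreg WT cells. The lower genes had medians of 34.2 CPM in nTreg mutant, 48.9 CPM in nTreg WT, 21.8 CPM in iTreg mutant and 30.1 CPM in iTreg WT cells.

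The count of genes called in both kinds rests on few libraries. With each library left out in turn, genes higher in both numbered 280 without iTreg WT 1, 352 without iTreg WT 2, 444 without iTreg mutant 1, 585 without iTreg mutant 2, 689 without nTreg WT 1, 685 without nTreg WT 2 and 618 without nTreg WT 3. Genes lower in both numbered 406, 389 and 450 without iTreg WT 1, iTreg WT 2 and iTreg mutant 1. Without nTreg mutant 1, the library that stands apart, 1333 were higher and 823 lower. The average calls moved less, to between 2728 and 3607 higher and between 2171 and 2750 lower. In all 12 such fits, 432 of the 1792 genes (24.1%) kept the call in both kinds, 178 higher and 254 lower, and 1789 (99.8%) kept the average call. Of all 6156 average calls, 4250 (69%) were kept in all 12 fits. Of the 131 genes chosen for description that passed in both kinds, 54 kept that call in all 12 fits and 77 lost it in at least 1; a loss is stated beside each such gene whose values are given below.

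**Figure D3:**
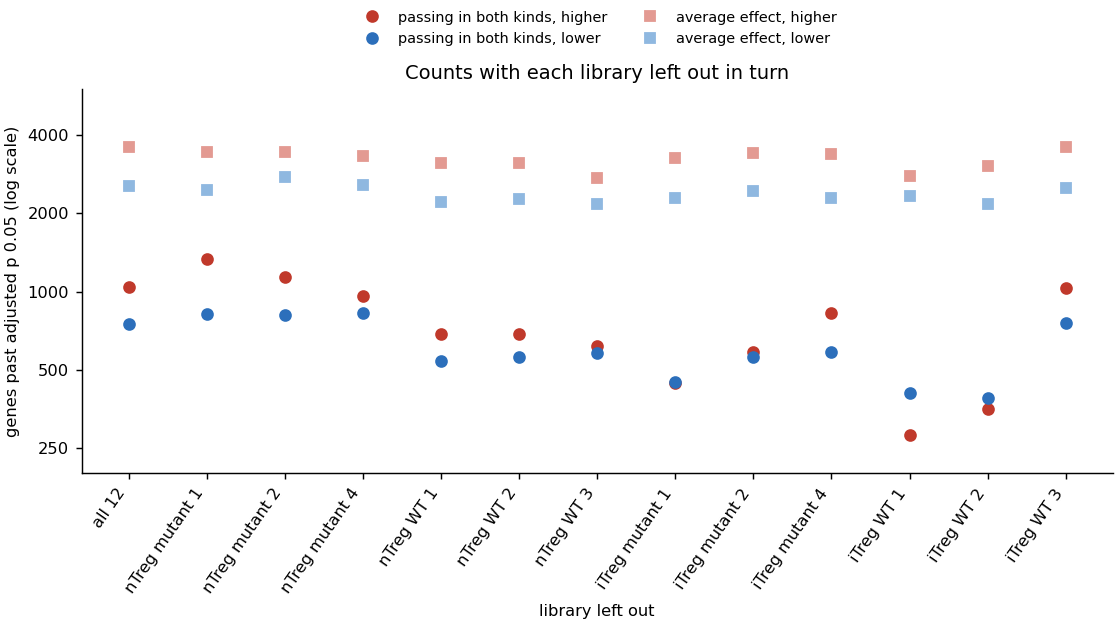
Genes past the threshold (vertical axis, log scale) when the library named below the axis was omitted, by the average effect (squares) and by passing in both kinds (circles), higher in red and lower in blue. Genes higher in both range from 280 without iTreg WT 1 to 1333 without nTreg mutant 1, while the average calls stay closer to 3602 higher and 2554 lower.

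Among the 15 named genes with the largest rise common to both kinds, the average log2 fold change ran from 1.26 to 2.35. These genes were chosen to have no overlap between mutant and WT libraries in either kind. Plod2, a lysyl hydroxylase that modifies collagen, had 13.1, 12.6 and 13.1 CPM in nTreg mutant, against 4.51, 3.20 and 3.84 CPM in nTreg WT libraries. In iTregs it had 84.1, 70.8 and 68.4 CPM in mutant, against 25.3, 26.3 and 36.5 CPM in WT libraries. Its level was several fold higher in cultured than in fresh cells, and it rose by 1.74 ± 0.16 in nTregs and 1.34 ± 0.14 in iTregs, with a difference interval of -0.86 to 0.06 and an average of 1.52 ± 0.12 (edgeR adjusted p = 2.97e-05). Arfgef3, which resembles exchange factors of ARF GTPases, had 9.86, 13.2 and 15.6 CPM in nTreg mutant, against 3.73, 4.01 and 3.44 CPM in nTreg WT libraries. In iTregs it had 16.2, 14.2 and 15.6 CPM in mutant, against 4.70, 6.36 and 9.43 CPM in WT libraries. The average of Arfgef3 was 1.46 ± 0.18 (edgeR adjusted p = 0.00025). Slc15a3, a lysosomal transporter of histidine and small peptides, rose by an average of 1.48 ± 0.23 and Lgalsl, a galectin-like protein, by 1.26 ± 0.15 (edgeR adjusted p = 0.000877 and 0.000229). Basp1, a membrane-bound protein best known from growing neurons, rose by 1.35 ± 0.18 (edgeR adjusted p = 0.000435). Dnah7a, an axonemal dynein heavy chain, rose by 1.43 ± 0.19 (edgeR adjusted p = 0.000391); it belongs to a family of similar genes, and reads that align to several places were counted at each, so its value is uncertain.

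Other genes in this group leaned on single libraries. Scin, an actin-severing protein, had 15.4, 8.12 and 6.84 CPM in nTreg mutant, against 2.24, 2.56 and 2.64 CPM in nTreg WT libraries, and 5.77, 5.65 and 27.7 CPM in iTreg mutant, against 1.14, 1.95 and 3.0 CPM in iTreg WT libraries. Its average was 2.35 ± 0.41 (edgeR adjusted p = 0.00141), but the call in nTregs was lost without nTreg WT 1, WT 2, WT 3 or mutant 1, with 0.0644 as its largest adjusted p. Plek, a protein kinase C substrate of blood cells, had 171, 35.1 and 34.7 CPM in nTreg mutant, against 20, 26.4 and 26.5 CPM in nTreg WT libraries. Its average of 1.75 ± 0.34 was 1.22 without nTreg mutant library 1, where the nTreg value was 0.55. The call of Plek in both kinds was lost without any 1 of the nTreg WT libraries, iTreg WT 1, iTreg WT 2, iTreg mutant 1 or iTreg mutant 4, with 0.101 (iTregs, without iTreg WT 1) as the largest edgeR adjusted p. Rai14 lost its iTreg call without iTreg WT 1, iTreg WT 2 or iTreg mutant 1, and Serpinb6b and Anxa2 lost theirs without these or iTreg mutant 4, with largest edgeR adjusted p of 0.0955, 0.14 and 0.134, each without iTreg WT 1. Sema6d lost its nTreg call without any nTreg library other than mutant 1, with 0.112 (without nTreg WT 3) as the largest adjusted p. Serpinb6b is 1 of several near-identical serpins and its counts are uncertain.

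Genes of cell death moved in both directions. Of 29 tested members of the BCL2 and caspase list, 10 rose and 5 fell on average, against 20.0% and 14.2% of all tested genes, and 8 rose and 2 fell in both kinds, against 5.80% and 4.17% (3 rose in both without iTreg WT 1, and 4 without iTreg WT 2); the median average effect was 0.09, against 0.03 over all tested genes. Casp4, the inflammatory caspase 11 of mice, had 66.2, 57.0 and 59.3 CPM in nTreg mutant, against 20.8, 23.8 and 22.6 CPM in nTreg WT libraries. In iTregs, where its level is lower, it had 7.74, 7.91 and 10.4 CPM in mutant, against 3.17, 3.86 and 3.43 CPM in WT libraries. The groups lay well apart in both kinds, with an average of 1.39 ± 0.09 (edgeR adjusted p = 4.54e-06) and a difference interval of -0.50 to 0.25. Casp1, the caspase that matures interleukin 1 beta, had 76.1, 57.6 and 55.8 CPM in nTreg mutant, against 22.5, 24.9 and 23.8 CPM in nTreg WT libraries, and 3.32, 2.67 and 4.86 CPM in iTreg mutant, against 1.23, 1.0 and 0.919 CPM in iTreg WT libraries. Its average was 1.54 ± 0.14 (edgeR adjusted p = 7.39e-05). Mlkl, the pore-forming effector of necroptosis, is outside this list and rose to 5.05 ± 1.93 CPM in nTreg mutant, against 1.46 ± 0.370 CPM in nTreg WT cells, and to 6.02 ± 1.19 CPM in iTreg mutant, against 2.56 ± 0.430 CPM in iTreg WT cells (SD, n = 3 each; average 1.49 ± 0.20, edgeR adjusted p = 0.000487).

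The members that fell included Bcl2l11, the pro-apoptotic BH3-only protein Bim. It had 35.7, 40.7 and 49.5 CPM in nTreg mutant, against 86.3, 67.4 and 65.7 CPM in nTreg WT libraries, and 34.1, 42.6 and 35.4 CPM in iTreg mutant, against 62.9, 62.2 and 50.6 CPM in iTreg WT libraries. No library overlapped, and the average was -0.73 ± 0.10 (edgeR adjusted p = 0.000556). Pmaip1, the BH3-only protein Noxa, moved the other way with an average of 0.94 ± 0.16 (edgeR adjusted p = 0.00116; without iTreg WT 1 its iTreg adjusted p was 0.0518). Bcl2a1a, Bcl2a1b and Bcl2a1d, which encode anti-apoptotic A1 proteins, also rose in both, but they are near-identical copies whose reads cannot be assigned apart with confidence.

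Mitotic genes rose together. All 40 tested members of the mitosis and spindle list were higher on average, also in each of the 12 fits with a library left out and with library size as the scaling, and their median average effect was 1.18, against 0.03 over all tested genes. The median was 1.67 in nTregs and 0.72 in iTregs, and 16 of the 40 differed between the kinds. Among all tested genes, 20.0% were higher on average, 5.80% were higher in both kinds and 13.3% differed between the kinds. In both kinds separately 28 of the 40 rose. That count was 1 without iTreg WT 1, 1 without iTreg WT 2, 6 without iTreg mutant 1, 9 without iTreg mutant 2 and 37 without nTreg mutant 1. Hmmr, a spindle-associated hyaluronan receptor, had 86.6, 48.2 and 49.4 CPM in nTreg mutant, against 19.9, 21.0 and 15.4 CPM in nTreg WT libraries, and 214, 202 and 182 CPM in iTreg mutant, against 82.6, 86.6 and 124 CPM in iTreg WT libraries. nTreg mutant 1 was the highest of the nTregs and iTreg WT 3 the highest of the iTreg WT libraries, and no groups overlapped. Its average was 1.36 ± 0.18 (edgeR adjusted p = 0.00042), and 1.17 without nTreg mutant library 1. Ccnb1, the cyclin that drives entry into mitosis with Cdk1, had 98.8, 46.4 and 45.3 CPM in nTreg mutant, against 17.9, 18.5 and 12.5 CPM in nTreg WT libraries, and 144, 141 and 128 CPM in iTreg mutant, against 52.2, 54.5 and 82.5 CPM in iTreg WT libraries. Its average was 1.53 ± 0.23 (edgeR adjusted p = 0.000698). The call in iTregs was lost without iTreg WT 1 or WT 2, with 0.0649 as the larger adjusted p. Cenpe, a kinetochore motor, averaged 1.32 ± 0.19 (edgeR adjusted p = 0.000644), and its iTreg call was lost without the same libraries, with 0.0599 as the larger adjusted p.

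The promoters of these 3 genes are shown because mitotic genes rose together and their promoters share short letters. Each runs from 250 bases before to 50 bases after the start of the gene in RefSeq on GRCm38.p6 and is printed 5′ to 3′ on the gene's strand. Capitals mark matches, on either strand, to the motifs searched: CCAAT (or ATTGG), the cell cycle homology region TTTGAA (or TTCAAA), the CRE TGACGTCA and the antioxidant response element TGACNNNGC.
Hmmr, chr11:40733388-40733687, minus strand: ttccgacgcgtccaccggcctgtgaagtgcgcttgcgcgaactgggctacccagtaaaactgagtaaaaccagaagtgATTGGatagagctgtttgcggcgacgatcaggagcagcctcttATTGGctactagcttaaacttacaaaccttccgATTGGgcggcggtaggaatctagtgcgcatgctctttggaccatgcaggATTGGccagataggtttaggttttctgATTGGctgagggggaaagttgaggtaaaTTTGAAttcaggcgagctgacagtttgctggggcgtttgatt
Ccnb1, chr13:100786437-100786736, minus strand: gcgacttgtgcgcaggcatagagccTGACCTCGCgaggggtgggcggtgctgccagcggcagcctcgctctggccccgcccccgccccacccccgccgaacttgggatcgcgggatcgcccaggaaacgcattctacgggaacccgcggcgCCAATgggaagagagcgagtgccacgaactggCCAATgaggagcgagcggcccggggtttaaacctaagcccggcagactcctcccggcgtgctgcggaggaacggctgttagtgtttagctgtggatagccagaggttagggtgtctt
Cenpe, chr3:135212313-135212612, plus strand: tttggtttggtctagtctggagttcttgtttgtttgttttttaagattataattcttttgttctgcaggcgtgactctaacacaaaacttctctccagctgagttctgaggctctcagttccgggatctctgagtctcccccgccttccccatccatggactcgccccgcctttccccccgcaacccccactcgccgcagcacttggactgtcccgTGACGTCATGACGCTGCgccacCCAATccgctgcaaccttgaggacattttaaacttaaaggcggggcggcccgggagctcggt

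Hmmr held 5 CCAAT matches and a TTTGAA, and Ccnb1 and Cenpe held CCAAT without TTTGAA in this window. In Cenpe the CRE and the antioxidant response element letters abut in 1 run of capitals. Of the 28 mitotic genes called in both kinds, 24 matched a promoter by symbol; 18 of the 24 (75.0%) held TTTGAA, 17 (70.8%) CCAAT and 14 (58.3%) both. Among the 662 matched genes that were higher in both, the shares were 20.7%, 42.3% and 9.82%, and among the 551 matched genes lower in both they were 8.35%, 38.1% and 3.99%. Over the 10704 matched tested genes they were 12.6%, 38.8% and 5.32%, and over all 27025 RefSeq promoters they were 18.1%, 37.9% and 7.12%. CCAAT and TTTGAA were searched for after the values of these genes were seen, and a match is a run of letters, not a bound site. Of the other motifs, the antioxidant response element TGACNNNGC, which can overlap the AP-1 letters TGANTCA, stood in 15.6% of the higher, 13.6% of the lower and 14.8% of the tested promoters. The E2F letters TTTGGCGC or TTTCCCGC stood in 3.63% of the higher, 1.27% of the lower and 3.05% of the tested promoters. The E-box CACGTG was at 8.91%, 9.80% and 9.99%, TGANTCA at 4.83%, 4.72% and 5.04%, TGACGTCA at 3.32%, 2.90% and 3.13%, the CEBP-ATF letters TGATGNAA at 2.72%, 2.2% and 2.34%, and the forkhead letters GTAAACA at 3.02%, 3.27% and 2.5% of the same promoters.

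Genes of DNA replication and S phase were higher on average, but unevenly between the kinds. Of 49 tested, 43 rose on average (37 to 44 with a library left out), against 20.0% of all tested genes. The median was 0.73, with 1.23 in nTregs and 0.31 in iTregs. The effect differed between the kinds for 29 of the 49, against 13.3% of all tested genes. In both kinds 7 of the 49 rose, against 5.80% of all tested genes. That count ran from 0 without iTreg WT 1, iTreg WT 2 or iTreg mutant 2 to 28 without nTreg mutant 1. It was 1 without iTreg mutant 1, 2 without nTreg WT 1 or nTreg WT 2, 3 without nTreg WT 3 and 11 without iTreg WT 3. With library size alone as the scaling it was 2.

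Nuclear genes of oxidative phosphorylation rose by small amounts on average, but not alike in the 2 kinds. Of 76 tested, 43 were higher and 0 lower on average (36 to 42 with a library left out), with a median of 0.25. All tested genes had 20.0% higher and 14.2% lower on average, and 5.80% higher in both kinds. In nTregs 48 rose and 0 fell, against 19.3% and 15.6% of all tested genes. In iTregs 22 rose and 6 fell, against 14.0% and 11.4%. The effect differed between the kinds for 15 of the 76, against 13.3%. Ndufa11, Atp5d and Atp5g1 rose in nTregs and fell in iTregs, and 1.40% of all tested genes had opposite calls. In both kinds 14 of the 76 rose, a count of 0 without iTreg WT 1, 1 without iTreg WT 2, 2 without iTreg mutant 1, 4 without iTreg mutant 2 and 7 without iTreg mutant 4. With library size alone as the scaling, 6 of them rose in both. Ndufc1, a complex I subunit, and Cycs, cytochrome c, led these by size, and the call was lost without iTreg WT 1 for both and without any 1 of 9 libraries for Cycs (the 6 iTreg and the 3 nTreg WT libraries). The 13 mitochondrially encoded genes had 3 higher on average (1 without nTreg WT 3 and 6 without nTreg mutant 1), with a median of -0.11 in nTregs and 0.40 in iTregs.

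Fabp5, a fatty acid binding protein of activated T cells, had 55.9, 42.5 and 42.8 CPM in nTreg mutant, against 15.4, 19.3 and 16.7 CPM in nTreg WT libraries. In iTregs it had 66.7, 66.2 and 75.0 CPM in mutant, against 35.2, 34.5 and 46.9 CPM in WT libraries. Every mutant library was above every WT library of its kind, and the average was 1.14 ± 0.13 (edgeR adjusted p = 0.000202). Acsl5, which activates long-chain fatty acids to acyl-CoA, rose by 0.58 ± 0.11 in nTregs and 0.59 ± 0.11 in iTregs, with a difference interval of -0.31 to 0.33 (average edgeR adjusted p = 0.000356). Of 37 genes of fatty acid uptake and oxidation, 9 rose and 6 fell on average, near the 20.0% and 14.2% of all tested genes, with a median of 0.09; the number falling was 3 without iTreg WT 2, iTreg mutant 1, iTreg mutant 2, iTreg mutant 4 or nTreg WT 3. Tfrc, the transferrin receptor through which cells take up iron, had 214, 126 and 137 CPM in nTreg mutant, against 86.9, 93.9 and 79.4 CPM in nTreg WT libraries, and 881, 933 and 730 CPM in iTreg mutant, against 432, 460 and 501 CPM in iTreg WT libraries. Its average was 0.87 ± 0.12 (edgeR adjusted p = 0.000423), and Slc39a6, a zinc importer, rose by 0.64 ± 0.08 (edgeR adjusted p = 0.000319). Pdk3, a kinase that inhibits pyruvate dehydrogenase, rose by 0.48 ± 0.07 (edgeR adjusted p = 0.000774).

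The 15 named genes with the largest common fall, also chosen for no overlap, ran from -1.68 to -0.90 on average. Of these, 14 kept the call in both kinds whichever library was left out. The exception was Acss1, a mitochondrial acetyl-CoA synthetase (average -0.90 ± 0.15, edgeR adjusted p = 0.00124), whose iTreg adjusted p was 0.0795 without iTreg WT 1. Pde2a, a phosphodiesterase that breaks down cAMP and cGMP, had 21.6, 28.9 and 33.2 CPM in nTreg mutant, against 62.3, 70.2 and 80.0 CPM in nTreg WT libraries. In iTregs it had 5.06, 8.69 and 3.95 CPM in mutant, against 20.6, 17.1 and 11.9 CPM in WT libraries. The average of Pde2a was -1.41 ± 0.18 (edgeR adjusted p = 0.000361). Col11a2, a fibrillar collagen chain, fell to 4.13 ± 0.837 CPM in nTreg mutant, against 13.9 ± 2.46 CPM in nTreg WT cells, and to 4.89 ± 0.568 CPM in iTreg mutant, against 11.3 ± 2.97 CPM in iTreg WT cells (SD, n = 3 each; average -1.47 ± 0.17, edgeR adjusted p = 0.000198). Xkrx, a membrane protein of the XK family, averaged -1.60 ± 0.22 (edgeR adjusted p = 0.000555). Sytl2, an effector of Rab27 in vesicle transport, averaged -1.09 ± 0.13 (edgeR adjusted p = 0.000202). Rab6b, a GTPase of Golgi transport, averaged -0.94 ± 0.11 (edgeR adjusted p = 0.000189). Nipal1, a magnesium transporter, averaged -1.0 ± 0.13 (edgeR adjusted p = 0.00033). The rest of the 15 were Ttc28, Tcp11l2, Mturn, Acrbp, Sh3pxd2a, Id3 and Ifi208, with averages of -1.21 to -0.95.

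Ifi208, an interferon-inducible protein of the p200 family, showed the same fold change at very different levels. It had 69.1, 68.8 and 80.5 CPM in nTreg mutant, against 143, 141 and 138 CPM in nTreg WT libraries, and 2.68, 3.58 and 2.46 CPM in iTreg mutant, against 5.6, 5.93 and 5.35 CPM in iTreg WT libraries. The log2 fold change was -0.95 in both kinds, with a difference interval of -0.27 to 0.26 and an average edgeR adjusted p of 4.16e-05. It has close relatives on chromosome 1 that may share reads. Of 59 genes of the interferon list, 10 rose and 10 fell on average, near the 20.0% and 14.2% of all tested genes, with a median of -0.03. With library size as the scaling, 15 of the 59 fell.

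**Figure D4:**
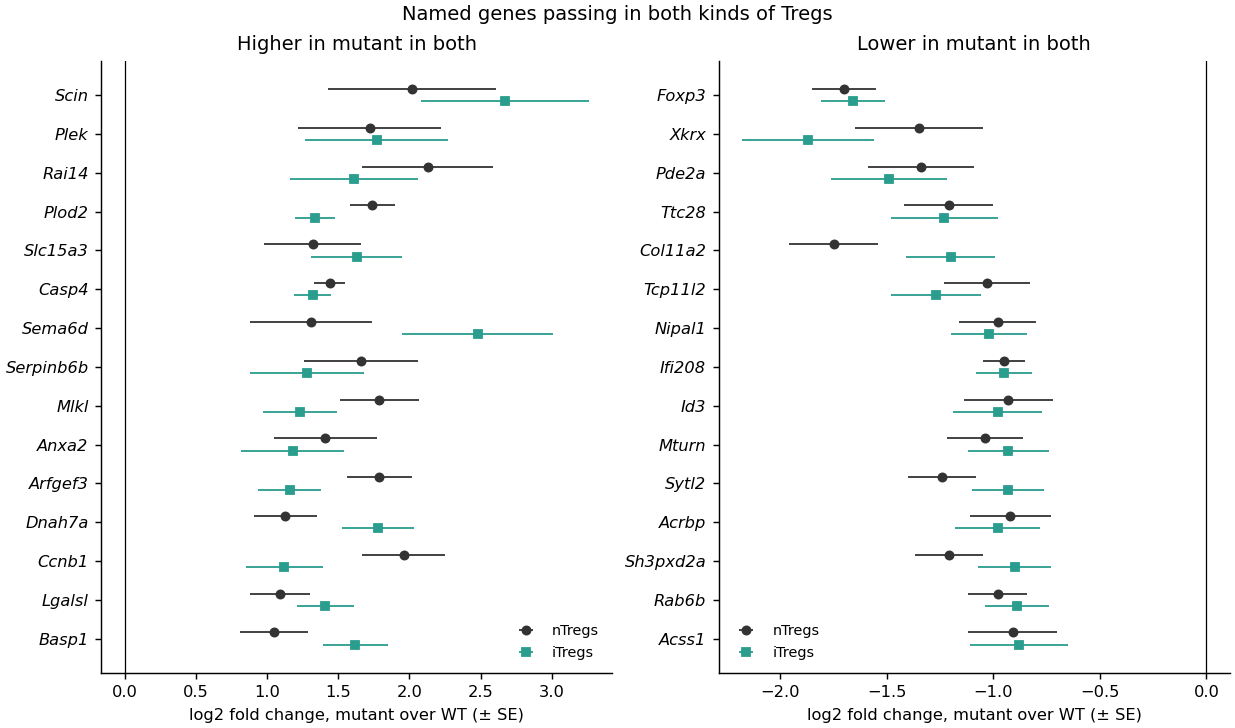
Log2 fold change (mutant over WT, ± SE) in nTregs (circles) and iTregs (squares) of the 15 named genes with the largest rise and the 15 with the largest fall common to both kinds. The symbols of a gene lie on the same side of 0 throughout, as the choice of genes required. The averages run from 2.35 for Scin to -1.68 for Foxp3.

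Genes that mark resting T cells and their homing to lymph nodes fell together. Of 29 tested, 21 fell and 1 rose on average (18 to 23 fell with a library left out), with a median of -0.49. The shares over all tested genes were 14.2% lower and 20.0% higher on average, and 4.17% lower in both kinds. In both kinds 8 of the 29 fell, among them Klf3, Cd27, S1pr1, Lef1, Satb1, Tspan32 and Btg2. That count was 5 without iTreg WT 1, iTreg WT 2 or iTreg mutant 1 and 13 without nTreg mutant 1. Klf3, a Krüppel-like repressor, had 103, 127 and 134 CPM in nTreg mutant, against 287, 274 and 261 CPM in nTreg WT libraries, and 56.6, 69.8 and 56.1 CPM in iTreg mutant, against 107, 102 and 86.6 CPM in iTreg WT libraries. The highest mutant library stayed below the lowest WT library in each kind, and the average was -0.94 ± 0.11 (edgeR adjusted p = 0.000189).

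Cd27, a costimulatory receptor of the TNF receptor family, had 127, 142 and 159 CPM in nTreg mutant, against 232, 223 and 236 CPM in nTreg WT libraries. In iTregs it had 30.9, 36.7 and 27.6 CPM in mutant, against 74.9, 66.4 and 62.9 CPM in WT libraries, and the average was -0.89 ± 0.10 (edgeR adjusted p = 0.000129). S1pr1, the receptor that guides lymphocytes out of lymph nodes, averaged -0.61 ± 0.08 (edgeR adjusted p = 0.00034). Lef1, a transcription factor of the Wnt pathway that naive T cells express, had 70.4, 75.2 and 93.7 CPM in nTreg mutant, against 128, 116 and 129 CPM in nTreg WT libraries, and 162, 158 and 144 CPM in iTreg mutant, against 219, 217 and 206 CPM in iTreg WT libraries (average -0.55 ± 0.07, edgeR adjusted p = 0.000414). Satb1, a chromatin organizer, averaged -0.66 ± 0.11 (edgeR adjusted p = 0.0013), but its iTreg call was lost without any 1 of the 6 iTreg libraries, with 0.116 (without iTreg WT 1) as the largest adjusted p.

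Other Treg transcription factors fell with Foxp3. Of 29 on that list, 16 fell and 1 rose on average (14 to 17 fell with a library left out), with a median of -0.26, and 7 fell in both kinds (4 without iTreg WT 1): Foxp3, Id3, Lef1, Satb1, Ets1, Bcl6 and Stat5b. For comparison, 14.2% of all tested genes fell and 20.0% rose on average, and 4.17% fell in both kinds. Id3, an inhibitor of E proteins, had 6.89, 12.6 and 10.8 CPM in nTreg mutant, against 15.8, 19.2 and 22.8 CPM in nTreg WT libraries, and 5.38, 5.71 and 8.01 CPM in iTreg mutant, against 13.1, 12.2 and 12.4 CPM in iTreg WT libraries (average -0.95 ± 0.15, edgeR adjusted p = 0.000802). Stat5b, which carries the signal of the IL-2 receptor, averaged -0.36 ± 0.06 (edgeR adjusted p = 0.00108). The list of Treg surface and suppressive molecules did not follow: of 29, 6 rose and 2 fell on average (4 to 8 rose with a library left out). This stands against 20.0% higher and 14.2% lower of all tested genes, and the median of the list was 0.19. Kmt2a, a histone methyltransferase, fell to 530 ± 78.0 CPM in nTreg mutant, against 884 ± 63.8 CPM in nTreg WT cells, and to 275 ± 16.3 CPM in iTreg mutant, against 445 ± 61.4 CPM in iTreg WT cells (SD, n = 3 each; average -0.72 ± 0.08, edgeR adjusted p = 0.000221). Tet3, a methylcytosine dioxygenase, averaged -0.60 ± 0.09 (edgeR adjusted p = 0.000705). It is within a list of 25 chromatin genes of which 9 fell and 7 rose on average, against 14.2% and 20.0% of all tested genes.

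T cell receptor signalling genes fell more often than they rose. Of 33 genes of T cell receptor and costimulatory signalling, 15 fell and 1 rose on average (14 to 17 fell with a library left out), with a median of -0.18. Over all tested genes 14.2% fell and 20.0% rose on average. Rasgrp1, which links the receptor to Ras, averaged -0.53 ± 0.08 (edgeR adjusted p = 0.000926). Among 39 cytokine receptor and signalling genes, 12 fell and 8 rose on average, against the same 14.2% and 20.0%, with a median of -0.04. Smad7, a feedback inhibitor of TGF-beta signalling, had 27.0, 34.6 and 37.1 CPM in nTreg mutant, against 50.9, 48.9 and 53 CPM in nTreg WT libraries, and 25.0, 29.8 and 24.9 CPM in iTreg mutant, against 49.4, 48.6 and 38.8 CPM in iTreg WT libraries. No library overlapped, and the average was -0.70 ± 0.09 (edgeR adjusted p = 0.000369). Tgfbr2, the TGF-beta receptor subunit that binds the ligand, averaged -0.47 ± 0.07 (edgeR adjusted p = 0.000734), and Il6st, the shared receptor chain gp130, averaged -0.66 ± 0.09 (edgeR adjusted p = 0.000487). Zfp36, which destabilizes cytokine messages, averaged -0.78 ± 0.09 (edgeR adjusted p = 0.000162).

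Il18r1, the ligand-binding chain of the IL-18 receptor, went up instead. It had 307, 278 and 233 CPM in nTreg mutant, against 131, 156 and 122 CPM in nTreg WT libraries, and 121, 149 and 181 CPM in iTreg mutant, against 83.3, 84.1 and 90.4 CPM in iTreg WT libraries (average 0.90 ± 0.10, edgeR adjusted p = 0.000198). Itgb1, the integrin beta 1 chain, rose by 0.57 ± 0.08 (edgeR adjusted p = 0.000516), and Anxa4, a calcium-dependent membrane binding protein, by 0.88 ± 0.11 (edgeR adjusted p = 0.000352). T cell cytokines were mostly higher: of 32 tested, 23 rose and 1 fell on average (19 to 24 rose with a library left out), with a median of 1.17. Shares over all tested genes were 20.0% higher and 14.2% lower on average, and 5.80% higher in both kinds. In both kinds 8 of the 32 rose, a count of 2 without iTreg WT 1, 3 without nTreg WT 3, 4 without iTreg WT 2, nTreg WT 1 or nTreg WT 2 and 5 without iTreg mutant 1. Spp1, osteopontin, kept its call in every fit at levels of 1.86 to 2.19 CPM in nTreg mutant and 0.505 to 0.679 CPM in nTreg WT libraries, and of 0.345 to 0.577 CPM in iTreg mutant and 0 to 0.027 CPM in iTreg WT libraries.

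Some of the largest average effects belonged to genes known from cytotoxic cells, with their highest level in nTreg mutant library 1. Gzmb, the protease granzyme B, had 585, 56.0 and 37.2 CPM in nTreg mutant, against 14.3, 16.4 and 9.36 CPM in nTreg WT libraries, and 26.2, 19.6 and 33.7 CPM in iTreg mutant, against 2.42, 3.41 and 9.65 CPM in iTreg WT libraries. Its average was 3.27 ± 0.68 (edgeR adjusted p = 0.00314) with all libraries and 2.09 without nTreg mutant library 1, and in iTregs alone it missed the threshold (adjusted p = 0.0731). Il12rb2, a chain of the IL-12 receptor, averaged 2.66 ± 0.70 (edgeR adjusted p = 0.0112) and 1.49 without that library, and Klrc1, the NK receptor NKG2A, averaged 2.30 ± 0.61 (edgeR adjusted p = 0.011) and 1.17 without it. The same library had the highest Cd8a (19.1 to 219 CPM in nTreg mutant and 3.70 to 6.36 CPM in nTreg WT libraries) and Gzma (5.75 to 220 CPM in nTreg mutant and 1.36 to 3.29 CPM in nTreg WT libraries). In iTregs Cd8a was at 1.24 to 2.29 CPM in mutant and 0.830 to 1.46 CPM in WT libraries, and Gzma had no counts. Of the 12 CD8 T and NK markers, 6 rose on average, against 20.0% of all tested genes. That count was 3 without nTreg WT 3, 7 without nTreg mutant 1 and 9 without iTreg WT 3. In nTregs 9 of the 12 rose, against 19.3% of all tested genes, and in iTregs 0 rose, against 14.0%. The part of these markers in the averages was not tested.

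Of 40 genes of glutathione synthesis and use, 9 rose and 5 fell on average, near the 20.0% and 14.2% of all tested genes, with a median of 0.21. In nTregs 18 of them rose, against 19.3% of all tested genes, and in iTregs 4 rose, against 14.0%. The effect differed between the kinds for 5 of the 40, against 13.3% of all tested genes. Gclm, the modifier subunit of the same ligase, had 196 ± 37.9 CPM in nTreg mutant, against 139 ± 23.1 CPM in nTreg WT cells, and 251 ± 33.8 CPM in iTreg mutant, against 250 ± 6.85 CPM in iTreg WT cells (SD, n = 3 each; average 0.25 ± 0.12, edgeR adjusted p = 0.123). Gss, which completes glutathione, averaged 0.31 ± 0.12 (edgeR adjusted p = 0.0547). Abcc5, an exporter of organic anions, averaged -0.66 ± 0.09 (edgeR adjusted p = 0.000523). Among 37 genes of the NRF2 and thioredoxin systems, 10 rose and 6 fell on average, against the same 20.0% and 14.2%, with a median of 0.04. Bach1, a repressor that competes with NRF2, had 22.8, 23.6 and 25.5 CPM in nTreg mutant, against 31.3, 32.9 and 35.1 CPM in nTreg WT libraries, and 14.9, 16.7 and 12.9 CPM in iTreg mutant, against 28.6, 27.3 and 23.7 CPM in iTreg WT libraries. Its groups did not overlap, and the average was -0.65 ± 0.09 (edgeR adjusted p = 0.000515). Prdx4, a peroxidase of the endoplasmic reticulum, rose by 0.69 ± 0.09 (edgeR adjusted p = 0.000404).

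The serine and one-carbon list was split between the kinds. Of 38 tested, 14 rose and 4 fell on average, with a median of 0.14, but 14 differed between the kinds. Across all tested genes 20.0% rose and 14.2% fell on average, and 13.3% differed between the kinds. The number of the 38 falling was 2 without iTreg WT 1, iTreg WT 2, iTreg mutant 4 or nTreg WT 1. Psat1, an aminotransferase of serine synthesis, had 136, 109 and 108 CPM in nTreg mutant, against 62.1, 58.3 and 53 CPM in nTreg WT libraries, and 182, 176 and 177 CPM in iTreg mutant, against 132, 137 and 143 CPM in iTreg WT libraries. It rose in both kinds, by 1.03 ± 0.09 in nTregs and 0.38 ± 0.09 in iTregs (average edgeR adjusted p = 0.000937), and the fold changes differed by -0.65, iTregs minus nTregs (95% interval -0.92 to -0.38); its iTreg adjusted p was 0.0613 without iTreg WT 1. Phgdh, the first enzyme of the pathway, averaged 0.41 ± 0.12 (edgeR adjusted p = 0.0169, and 0.0544 without nTreg WT 3) from 0.81 in nTregs and 0.03 in iTregs. Mthfd2, a mitochondrial folate enzyme, averaged 0.50 ± 0.13 (edgeR adjusted p = 0.0113) from 0.93 and 0.08, and Shmt1, the cytosolic serine hydroxymethyltransferase, 0.57 ± 0.14 (edgeR adjusted p = 0.00662) from 0.95 and 0.21. Shmt2, its mitochondrial form, was at 0.83 in nTregs and -0.49 in iTregs, and the average of 0.16 ± 0.20 missed the threshold (edgeR adjusted p = 0.555). The amino acid carriers Slc1a4 and Slc1a5 also missed it, at 0.57 ± 0.33 and -0.14 ± 0.05 (edgeR adjusted p = 0.207 and 0.0524).

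Targets of the stress factor ATF4 were split as well. Of 41, 10 rose and 4 fell on average (2 fell without iTreg mutant 1), 19 differed between the kinds, and the median was 0.52 in nTregs and -0.12 in iTregs, with the same sign in both kinds for 43.9% of genes, against 62.9% of all tested genes. The other shares over all tested genes were 20.0% higher, 14.2% lower and 13.3% differing between the kinds. Asns, asparagine synthetase, had 21.5, 17.7 and 18.6 CPM in nTreg mutant, against 2.51, 2.69 and 1.61 CPM in nTreg WT libraries, and 14.4, 15.4 and 16.7 CPM in iTreg mutant, against 9.79, 11.3 and 10.5 CPM in iTreg WT libraries. It rose in both kinds, but by 3.09 ± 0.16 in nTregs and 0.55 ± 0.14 in iTregs (edgeR adjusted p = 2.07e-06 and 0.0153; the iTreg value was 0.079 without iTreg WT 1). Cth, which makes cysteine from cystathionine, rose at low levels, with 0.379 to 0.700 CPM in nTreg mutant and 0 to 0.0620 CPM in nTreg WT libraries, and 1.69 to 3.89 CPM in iTreg mutant and 0.811 to 0.945 CPM in iTreg WT libraries (average 1.97 ± 0.38, edgeR adjusted p = 0.0021).

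**Figure D5:**
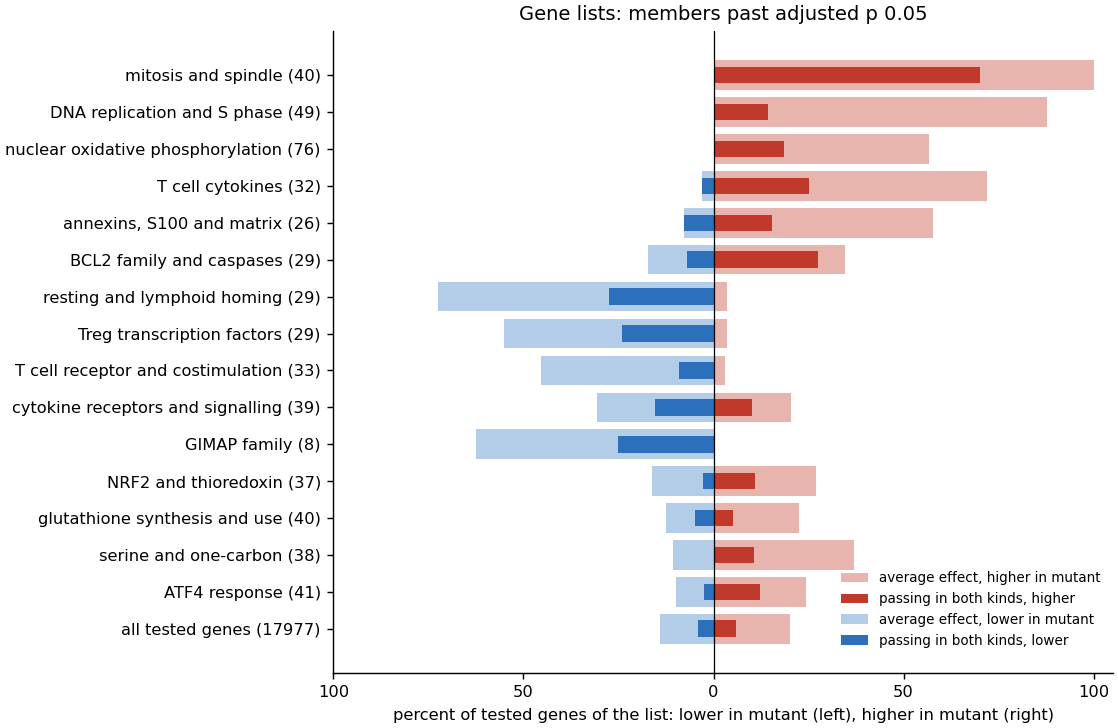
Percent of the tested members of 15 gene lists and of all tested genes that were higher (right of 0) or lower (left of 0) in mutant cells, on average (pale bars) and in both kinds (dark bars), with the number tested in parentheses. All 40 mitosis genes were higher on average, and 21 of 29 resting and homing genes were lower.

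Further lists covered metabolism, stress and lymphocyte families. On average 14 of 41 glycolysis genes rose and 4 fell, 15 of 41 sterol and fatty acid synthesis genes rose and 4 fell, 14 of 38 targets of MYC and of ribosome assembly rose and 2 fell, and 11 of 29 genes of the unfolded protein response rose and 4 fell. The p53 response and CDK inhibitors had 16 of 42 higher and 6 lower, and mTORC1 and nutrient brakes had 5 of 37 higher and 11 lower. Of the mTORC1 list, 3 rose without iTreg WT 1 and 2 without nTreg WT 3. Iron and metal genes had 10 of 31 higher and 4 lower, with 2 lower without iTreg mutant 1 or nTreg WT 1 and 1 without nTreg WT 2. Annexins, S100 and matrix genes had 15 of 26 higher and 2 lower, and effector lineage transcription factors had 9 of 24 higher (6 to 10 with a library left out). The GIMAP family of lymphocyte GTPases had 5 of 8 lower, and 3 without iTreg mutant 4, nTreg mutant 2 or any 1 nTreg WT library; its members lie in a cluster of similar genes. These shares stand against the 20.0% higher and 14.2% lower of all tested genes. The effect differed between the kinds for 15 of the glycolysis, 13 of the p53, 11 of the MYC and 10 of the sterol genes, against 13.3% of all tested genes. In the other lists named here 1 to 4 genes differed. Of the MYC genes 22 rose and 1 fell in nTregs, and 5 rose and 6 fell in iTregs. Of the sterol genes 5 rose and 5 fell in nTregs, and 16 rose and 6 fell in iTregs. Over all tested genes 19.3% rose and 15.6% fell in nTregs, and 14.0% rose and 11.4% fell in iTregs.

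The 251 genes with opposite signs are hidden by the average. In 131 the gene was higher in mutant nTregs and lower in mutant iTregs, and in 120 the reverse. The total was 77 without iTreg WT 1, 87 without iTreg WT 2, 99 without nTreg WT 2, 106 without iTreg mutant 1, 109 without iTreg mutant 2 and 123 without nTreg WT 1, and the 4 genes described here kept their calls in every fit. Capn5, a calpain protease, had 4.93, 6.98 and 5.48 CPM in nTreg mutant, against 2.65, 2.86 and 3.07 CPM in nTreg WT libraries, and 5.56, 4.17 and 2.88 CPM in iTreg mutant, against 9.22, 8.79 and 10.5 CPM in iTreg WT libraries. Mutant libraries were above WT in nTregs and below WT in iTregs without overlap, and the effects differed by -2.20 (interval -2.83 to -1.56). Ctsw, a cathepsin of cytotoxic lymphocytes, had log2 fold changes of 0.70 ± 0.18 in nTregs and -1.08 ± 0.17 in iTregs, which left an average of -0.20 ± 0.28 (edgeR adjusted p = 0.612). Coro2a, an actin-binding coronin, had 130, 153 and 151 CPM in nTreg mutant, against 240, 216 and 200 CPM in nTreg WT libraries, and 55, 66.4 and 56.3 CPM in iTreg mutant, against 29.5, 33.1 and 41.0 CPM in iTreg WT libraries. Rasgef1b, an exchange factor of Ras-like GTPases, fell by 0.73 ± 0.13 in nTregs and rose by 0.69 ± 0.12 in iTregs, and its average was 0.00 ± 0.23 (edgeR adjusted p = 0.995).

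The genes called in both kinds were also described by biotype, exonic length, level and position. The test works on counts, so level, and features that go with it, are not independent of the call. Their part in the calls was not tested. Of the higher genes 79.5% and of the lower genes 89.3% were protein coding, against 71.9% of tested genes. The lower genes had longer exonic sequence, with a median of 5207 bases, against 3883 bases for the higher and 4058 bases for all tested genes. Over 5 equal classes of the tested genes by exonic length, the share called lower in both was 0.890%, 2.39%, 4.12%, 5.84% and 7.59% from the shortest to the longest, and the share called higher in both was 4.39%, 6.73%, 5.76%, 6.46% and 5.67%. Over 5 equal classes by level, the share called in both was 1.95%, 7.51%, 11%, 14.4% and 14.9% from the lowest to the highest. By chromosome the share ran from 7.91% on chromosome 12 to 12.8% on chromosome 18. Near Gclc, 1 of 18 tested genes within 2 Mb (5.56%), 7 of 52 within 5 Mb (13.5%) and 10 of 117 within 10 Mb (8.55%) were higher in both, against 5.80% of all tested genes, and 1 gene was lower in both in each window.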

How the data were processed

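RNA from 3 mutant and 3 WT libraries of each cell kind was prepared with a stranded poly(A) kit (TruSeq Stranded mRNA, per the labels' protocols). Per the file headers, the authors counted reads per gene with featureCounts 1.5.2 on exons of Ensembl GRCm38 release 87, reverse-stranded, without chimeric pairs, giving a read to the gene with the largest overlap and counting multi-mapping reads at each alignment, so near-identical genes share counts. bcl2fastq 2.18.0.12, STAR 2.5.2b and Subread 1.5.2 are named in the submitters' processing notes. The deposited counts are whole numbers with no normalization, 28707579 to 39886130 per library. CPM were computed from them with TMM scaling. Of 49671 genes, 49326 matched a symbol and 17977 passed filterByExpr on the 4 groups.

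Tests used edgeR 4.0.16 (R 4.3.3), glmQLFit and glmQLFTest, two-sided, with Benjamini-Hochberg adjustment over all tested genes and a threshold of 0.05. The average effect came from a model of cell kind plus genotype (9 residual degrees of freedom), and the effects per kind and their difference (iTregs minus nTregs) from 1 fit of 4 group means (8 degrees of freedom). Fold changes are log2, mutant over WT. Alternatives were DESeq2 1.42.0, limma 3.58.1 voom weights, other scalings and filters, replicate blocks and leaving out each library. The genes, lists and tests were chosen with earlier results of these data known. Gclc and Foxp3 are named first. Then come the 15 genes per direction with the largest smaller change of the 2 kinds, no overlap between libraries and at least 5 CPM in each kind, 5 genes per kind of opposite call, 5 per direction that pass only on average, up to 4 members per list and direction, and 9 genes of serine and glutathione metabolism. Predicted genes, pseudogenes, ribosomal protein copies and receptor segments were left out. A few genes that the rule names are not reported here.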

Additional observations from a re-analysis of the deposited data

Results flagged for a closer look

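The mutant effect differed between the kinds for 2392 genes by edgeR's test of the difference (iTregs minus nTregs, log2 scale), and so it did for 28 of the genes chosen for description. For these the average is not the effect of either kind. Gclc itself differed by -0.65. Among genes called higher in nTregs and lower in iTregs the difference was -2.20 for Capn5, -1.78 for Ctsw, -1.15 for Med16, -1.47 for Mif and -1.87 for Fes. Among genes called lower in nTregs and higher in iTregs it was 2.14 for Nrn1, 1.66 for Evi5, 1.42 for Rasgef1b, 1.38 for Coro2a and 1.05 for Zfp870. Of the genes that passed on average but missed in 1 kind, Pou6f1 differed by -1.57 and Sesn1 by 1.34.

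Some genes that passed in both kinds the same way still differed in size. The difference was 1.2 for Tigit, 3.18 for Spp1, -0.58 for Ltb, -0.36 for Sod1, -0.88 for Tyms, -0.65 for Psat1, -2.53 for Asns, -2.72 for Cdkn1a, 0.58 for Cdkn1b and -0.63 for Vim. With each library left out in turn, Spp1 kept the call in both kinds in all 12 fits. The call was lost in 11 fits for Tigit, 10 for Sod1, 8 for Tyms, 6 for Ltb, 6 for Cdkn1b, 4 for Cdkn1a, 3 for Vim, 1 for Psat1 and 1 for Asns; the fit without iTreg WT 1 lost it for each of these except Ltb, which lost it without iTreg WT 2, among others. Of the serine and one-carbon genes not called the same way in both kinds, the difference was -0.78 for Phgdh, -0.74 for Shmt1, -1.32 for Shmt2, -0.85 for Mthfd2 and -2.24 for the carrier Slc1a4.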

How the results depend on the processing

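The call in both kinds was the least stable: of 131 described genes with that call, 66 to 121 kept it with a library left out and 87 to 129 under the other alternatives, the fewest with the replicate block as a fixed term. The fold changes themselves, taken as the average, or per kind for 10 genes with opposite signs, held more often. Of 3654 such values, 3587 kept their direction and side of the threshold, 45 lost the call, 20 gained one and 2 changed sign: with voom sample quality weights the averages of Shmt2 and Slc1a4 were -0.03 and -0.06 (limma adjusted p = 0.896 and 0.868). Those weights gave 1772 genes higher in both kinds, 694 opposite and 5011 that differed. Scaling by library size alone gave 859 genes higher and 835 lower in both kinds, against 1043 and 749 with TMM. It kept 74.9% of the 1792 genes called in both. The TMM factors were 0.909 to 0.953 in iTreg mutant and 0.974 to 0.999 in iTreg WT libraries. With the replicate number as a fixed replicate block, 1459 genes were lower on average, 483 lower in both, 67 opposite and 1471 different. The labels do not say whether equal numbers mark paired libraries. Same-numbered nTreg and iTreg mutant libraries deviated from their group means with r of 0.0415, 0.00874 and -0.0112. For the WT libraries r was 0.0499, 0.00486 and -0.0639. These values cannot decide pairing, because fresh and cultured cells of the same mouse need not deviate alike. With 1 library left out, average calls ran from 2728 to 3607 higher and 2171 to 2750 lower, genes in both kinds from 280 to 1333 higher and 389 to 826 lower, opposite genes from 77 to 330 and differing genes from 1104 to 3216; the cause was not tested. Without iTreg WT 1, 40.8% of the genes called in both were higher, against 58.2% with all libraries. Of genes in the lowest class by level 1.95% passed in both, against 9.97% of all; the part of depth in this was not tested.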
